A study of Mus musculus with 38 samples.

Results

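Full-length MMERVK10C elements are near-complete proviruses of a young mouse endogenous retrovirus (ERV) family of the ERVK class. The elements described here are all the intervals of the count table that the authors made for full-length MMERVK10Cs, which were predicted by RetroTector and kept where RepeatMasker annotates MMERVK10C-int. The table lists 309 rows. Of these, 28 rows give 14 intervals under a pair of names each, with 0 counts in every library, so that 295 distinct intervals remained. They compare with 3494634 individual transposable elements counted in the same study. All 295 intervals were found in the H3K9me3 matrix with the same ends and strand, after removal of its repeated rows, and 14 further intervals of the matrix have no counts and were not used. Each element is named by the tag that the table gives its copy, as in dup97 for MMERVK10C-int_dup97.

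An ERV provirus carries gag, pol and env genes between a pair of long terminal repeats (LTRs). The 5′ LTR holds the promoter and the 3′ LTR the signal that ends the transcript. The LTRs are identical when the virus integrates and drift apart with time, and the integrase leaves a short host sequence repeated on both sides of the insert. Trim28 is a co-repressor that KRAB zinc finger proteins bring to ERVs, where it recruits the histone methyltransferase SETDB1. SETDB1 deposits trimethylation of lysine 9 on histone H3 (H3K9me3), a mark of silent chromatin.

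The counts come from 32 bulk RNA-seq libraries of 5 mouse experiments. Neural progenitor cell (NPC) cultures from the E13.5 forebrain of Rosa26-Cas9 knock-in mice, which all express Cas9, were transduced with lentiviral guide RNAs to exon 3, 4 or 13 of Trim28 (2 libraries per guide, 6 Trim28-KO) or to lacZ (2 controls), and RFP+ cells were sorted after 10 days. Adult Cas9-GFP knock-in mice and adult Stop-Cas9-GFP knock-in mice, whose Cas9 needs Cre, received AAV guide RNAs to exon 3, 4, 13 or all of these in the forebrain (4 Trim28-KO each) or to lacZ (1 control each), and RFP+ nuclei were sorted 2 months later. The Stop-Cas9-GFP mice also received AAV with Cre under the neuronal Synapsin promoter. For the Cas9-GFP mice, whose Cas9 needs no Cre, the series design names Cre as well and the study's text names the guide vectors alone. Adult Trim28-flox mice (+/- and +/+ for the floxed allele) were, in the study's words, co-injected with AAV for Cre or nuclear GFP, both driven by the Synapsin promoter. Cre deletes the floxed part of Trim28, and the study names the +/+ animals as its KO animals. GFP+ nuclei were sorted 2 months later (4 labelled Trim28-KO, 4 labelled control). Cortex at 3 months of age was taken from Emx1-Cre (+/-) animals with both Trim28-fl alleles (3 Trim28-KO) or 1 such allele (3 controls), from a cross that also carried gtRosa. Emx1-Cre acts in the cortical progenitors that give excitatory neurons and glia, and the tissue also holds cells without Cre. By these genotypes, which the study's methods give, the controls too have lost 1 Trim28 allele in the cells with Cre. A figure legend of the study calls the controls Cre-negative instead. H3K9me3 was profiled by CUT&RUN in NPCs, with 1 H3K9me3 and 1 IgG library.

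Libraries held 8790346 to 25345083 gene counts, and 230 to 2900 counts on the full-length elements. Trim28 counts were lower in KO than in control NPCs, with 36.8 to 73.6 against 157 and 204 CPM, which is the count scaled to the library's gene counts (log2 fold change -1.82, SE 0.25, adjusted p = 0.031), and in Emx1-Cre KO cortex, with 6.08 to 8.88 against 19 to 21.4 CPM (-1.39, SE 0.15, 3.8e-04). The NPC call was lost, at an adjusted p of up to 0.41, when any of 6 of the 8 libraries was left out. Trim28 did not pass the test in Cas9-GFP nuclei (-0.51, adjusted p = 0.41) or Stop-Cas9-GFP nuclei (-0.0026, 1.00). In the Trim28-flox nuclei it was higher in the libraries labelled KO, with 131 to 146 against 25.6 to 31.6 CPM (2.26, 2.7e-06), which goes against the label, and that experiment is given by its labels throughout. Counts per gene include exons outside the edited or deleted part. Markers of progenitors summed to 1941 to 4583 CPM in the NPC libraries and those of neurons to 7834 to 9377 CPM in cortex. Striatal neuron markers summed to 1109 to 1662 CPM in the sorted nuclei and to 32.3 to 44.9 CPM in cortex. No gene of the 9 lists of cell type markers was called changed in any experiment. Their sums overlapped between KO and control in NPCs for every list. In cortex the sums of 4 lists did not overlap, with oligodendrocyte markers at 1694 to 1903 CPM in KO against 2113 to 2281, inhibitory neuron markers at 521 to 578 against 588 to 648, endothelial markers at 83.6 to 104 against 107 to 119, and progenitor markers at 78.5 to 91.1 against 71.0 to 75.5. In Trim28-flox nuclei the microglia markers alone did not overlap, at 37.2 to 45.1 CPM in the labelled KO against 46.7 to 48.5 in the labelled control. How often sums of other genes fail to overlap was not computed, so the number of such lists is not weighed here. The part of the cortex shifts in the cortex results was not tested.

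The elements lay on 21 chromosomes, 148 on the plus and 147 on the minus strand. Their length ran from 588 to 9346 bases with a median of 6862, and 223 were at least 5000 bases long. RLTR10C, the LTR of the family in its young form, was annotated at both ends of 134 elements (45.4%), and some annotated LTR at both ends of 189. The LTRs of these 189 were identical over a median of 96.7% of their bases (51.5 to 100%), and in 35 elements over 100%. In all, 36 elements overlapped another element of the table, which left 277 separate loci.

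The elements are so alike that short reads can be placed on only part of many of them. Windows of 75 bases, the read length of the CUT&RUN libraries, that occur only once in the genome (GRCm38.p6) reached a median of 65% of an element, and windows of 150 bases, the read length of the RNA-seq, a median of 90.9%. The range was 0 to 100% for both. In the 80 elements with an LTR identity of at least 98%, the medians were 24.5% and 53.2%. The pairing of reads was not taken into account.

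The 40 bases after the 5′ LTR, where a retroviral genome has the site that its tRNA primer binds, are shown for 6 elements that the RNA results turn on (GRCm38.p6), with capitals where a base differs from the most common form. That form, printed for dup97, stood in 66 of the 212 elements with a 5′ LTR (31.1%). It stood in 14 of the 26 elements called up in any experiment below.
dup97, chr1:90995372-90995411, minus strand: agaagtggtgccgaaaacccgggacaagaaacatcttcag
dup532.1, chr3:96514840-96514879, minus strand: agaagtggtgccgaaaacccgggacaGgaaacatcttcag
dup846, chr4:131222548-131222587, plus strand: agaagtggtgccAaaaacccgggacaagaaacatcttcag
dup1510, chr7:143856814-143856853, plus strand: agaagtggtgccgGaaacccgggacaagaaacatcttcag
dup74, chr1:48973724-48973763, plus strand: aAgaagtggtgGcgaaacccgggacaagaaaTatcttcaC
dup2481, chr12:70183955-70183994, plus strand: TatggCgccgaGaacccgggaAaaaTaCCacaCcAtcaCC
Aligned to the common form, dup532.1, dup846 and dup1510 had 1 difference each, dup74 had 5 and dup2481, which has RLTR46A LTRs, had 15. These include missing bases, which no capital marks, so dup74 and dup2481 show fewer capitals than differences. The 40 bases start at the annotated LTR end, so a shifted end also adds differences.

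The junctions of insert and host DNA are shown for 5 elements, because they mark where each provirus begins and ends. Capitals mark the 6 host bases that stand on both sides, and each sequence is read along the element (GRCm38.p6).
dup97 5′ junction, chr1:90995827-90995856, minus strand: gggtggggGTGTTGtgtgggaagccacatg
dup97 3′ junction, chr1:90988719-90988748, minus strand: cagtcgagcgcgcgcaagaGTGTTGtctca
dup532.1 5′ junction, chr3:96515295-96515324, minus strand: actttttgCCAGATtgtgggaagccacatg
dup532.1 3′ junction, chr3:96508196-96508225, minus strand: cagtcgagcgcgcgcaagaCCAGATatggc
dup846 5′ junction, chr4:131222103-131222132, plus strand: ttgcaggtATCATGtgtgggaagccacatg
dup846 3′ junction, chr4:131229211-131229240, plus strand: cagtcgagcgcgcgcaagaATCATGacctg
dup854 5′ junction, chr4:139952835-139952864, plus strand: ctgcttttGTAAGCtgtgggaagccacatg
dup854 3′ junction, chr4:139958325-139958354, plus strand: gagtcgagcgcgcgcaagaGTAAGCtgtcc
dup2481 5′ junction, chr12:70183620-70183649, plus strand: cagatctaAAGGAGtgtggagagctgcaat
dup2481 3′ junction, chr12:70190131-70190160, plus strand: acaataacatgggacaAAGGAGttctttct
The 4 RLTR10C elements opened with the same 16 LTR bases and differed in their host bases. Of the 189 elements with an LTR at both ends, 146 (77.2%) had the same 6 host bases on both sides, 34 of them directly at the annotated LTR ends and 107 at 3 bases beyond the annotated end.

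The study measured the family with primers in the LTR, POL and ENV parts, whose matches show how far single elements differ from each other.
LTR forward primer: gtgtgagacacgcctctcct
LTR reverse primer: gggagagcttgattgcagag
POL forward primer: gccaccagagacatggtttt
POL reverse primer: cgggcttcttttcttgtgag
ENV forward primer: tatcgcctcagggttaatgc
ENV reverse primer: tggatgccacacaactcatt
Both primers of a pair matched without a difference in 14 of the 295 elements for the LTR, 22 for POL and 27 for ENV. The POL forward primer alone matched 131 elements. In dup97, the element with the most counts in KO NPCs, the LTR forward and the POL reverse primer each had 1 difference and the others none.

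Transcription was spread very unevenly over the elements. Over all 32 libraries, 98 elements had no count, 14 of which were those listed under a pair of names, and 197 had at least 1, with a median of 19 counts among these. The total was 40059 counts, and the 10 elements with the most held 75.2% of it. Reads were counted only where they map to a single place, so counts come from the parts of an element that differ from its relatives.

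The summed level of the elements was higher in KO than in control libraries of the NPC and the Emx1-Cre experiments, with no overlap between libraries. In NPCs the 6 KO libraries held 86.0 to 154.5 CPM with a median of 96.6, and the 2 controls 12.4 and 16.7 CPM. The means were 105.5 ± 25.1 (SD, n = 6) and 14.5 ± 3.08 CPM (n = 2), a log2 ratio of 2.86. A single element, dup97, made up 51.0 to 64.7% of the counts in each KO library and 0.870 and 4.17% in the controls. Without dup97 the KO libraries held 36.1 to 54.6 CPM and the controls 12.3 and 16.0, a log2 ratio of 1.63.

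In Emx1-Cre cortex the means were 81.4 ± 0.992 CPM in KO and 16.4 ± 2.48 CPM in control (SD, n = 3 each), a log2 ratio of 2.31, and 2.09 without dup2481, the element with the most counts there. More elements were seen at all in these KO libraries. Elements with at least 1 count numbered 70 to 105 in KO against 34 and 44 in control NPC libraries, and 84 to 98 against 50 to 60 in cortex. In bulk samples, fewer cells that transcribe an element and less RNA per cell cannot be told apart.

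In adult nuclei the sums stood closer together. Cas9-GFP nuclei held 94.4 to 118.4 CPM in the 4 KO libraries against 63.8 CPM in the 1 control, and Stop-Cas9-GFP nuclei 112.5 to 155.9 against 107.4 CPM. In these 2 experiments the median log2 fold change over all individual transposable elements tested was also above 0, at 0.66 and 0.40. Trim28-flox nuclei held 76.6 ± 14.8 CPM in the labelled KO and 70.0 ± 10.3 CPM in the labelled control libraries (SD, n = 4 each), with overlapping ranges and a log2 ratio of 0.13, or -0.06 without dup1646. The plot of summed CPM by library shows these levels.

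**Figure D1:**
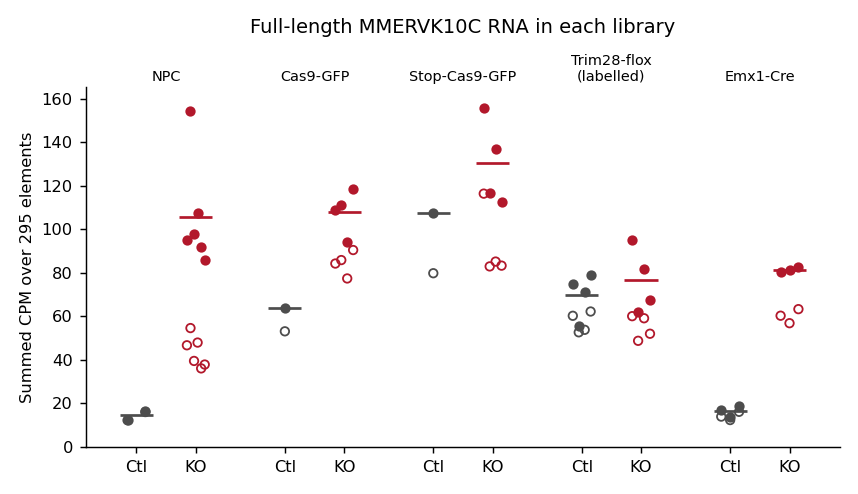
Summed CPM over all 295 full-length elements in each of 32 bulk libraries (y axis, CPM relative to gene counts), by experiment and condition (x axis). Filled points are sums over all elements, open points leave out the element with the most counts in that experiment, and bars are group means. The 6 KO NPC libraries lie between 86.0 and 154.5 CPM and the 3 KO cortex libraries near 81.4 CPM, both above their controls, while the Trim28-flox groups overlap.

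The same direction was seen for the whole subfamily, counted with reads of several matches shared among copies. MMERVK10C-int stood at 300.2 to 436.9 CPM in KO NPCs against 16.1 and 23.0 in controls, and at 240.1 to 324.2 CPM in KO cortex against 37.9 to 44.4. The counts on full-length elements equalled 28.7% of the subfamily counts in KO and 72.3% in control NPCs, so most counts that the subfamily had in KO NPCs were not among those placed uniquely on a full-length element.

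Elements were then tested one by one with edgeR's quasi-likelihood test, with library sizes from the gene counts, and called where the adjusted p was under 0.05 with a log2 fold change of more than 0.5 in either direction. The filter on low counts keeps an element that is high in KO libraries alone, so calls among tested elements describe single elements and not the set of 295. In NPCs 150 elements had a count, 20 passed the filter and 14 were called up (70% of those tested), against 0.55% of 35091 individual transposable elements and 0.176% of 16469 genes. Without the filter 19 of the 150 were called. In Emx1-Cre cortex 141 had a count, 20 passed and 16 were called up (80%), against 2.67% of 14556 individual transposable elements and 0.86% of 16271 genes, and 36 of 141 without the filter. None of these was called down (0%) in either experiment, also with DESeq2 and at an unadjusted p under 0.05. Over all 295 elements, every KO library lay above every control library for 25 in NPCs and 42 in cortex. The share of all genes or transposable elements that do so was not computed, so these numbers are not weighed here. The study's methods describe the NPC groups as biological replicates, but no label says which libraries came from separate cultures, so p-values measure the spread between these libraries.

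The calls of NPCs and cortex shared 4 elements, dup532.1, dup631, dup854 and dup2481, which is 28.6% of the NPC calls and 25% of the cortex calls. Only 7 elements were tested in both. The plot of called elements over all groups shows the levels of the 26 elements called in either.

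**Figure D2:**
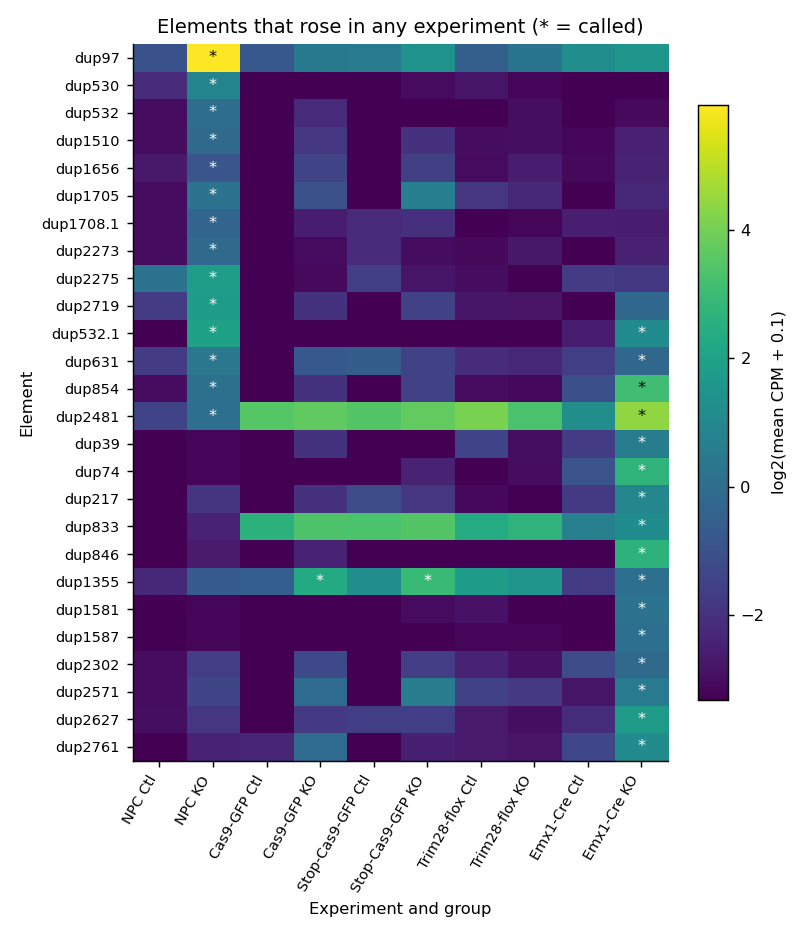
Mean level of the 26 called full-length elements (rows) in the 10 groups of bulk libraries (columns), as log2 of mean CPM + 0.1. An asterisk marks a call in that experiment. The element dup97 is high in KO NPCs, dup2481 is present in adult nuclei of both conditions and in KO cortex, and most other called elements are near the bottom of the scale in adult nuclei.

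Counted as single intervals, dup97 (chr1:90988730-90995842, minus strand, 7113 bases) had the highest level per length of the named elements in KO NPCs. Its mean was 8.67 CPM per kb against 1.00 for the next, dup2495. The overlapping intervals dup532 and dup532.1, joined to 1 locus below, had 26.9 CPM in KO NPCs on other counts and were not ranked per length. The LTRs of dup97 are identical, and unique 75-base windows reach 16.7% of it. The KO libraries held 501 to 1875 counts with a median of 937.5, and the controls 2 and 14. As CPM this was 48.1 to 99.9 with a median of 57.0 in KO and 0.107 and 0.697 in controls, a log2 fold change of 7.22 (SE 0.83, adjusted p = 2.0e-06). Every KO library lay far above both controls, with all 3 guides.

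In cortex the same element did not pass the test. Its counts were 47, 54 and 37 in the 3 KO and 60, 39 and 54 in the 3 control libraries, or 2.80 ± 0.131 against 2.23 ± 0.148 CPM (SD, n = 3 each, log2 fold change 0.32, adjusted p = 0.073). The effects in NPCs and cortex differed by 6.94 on the log2 scale (SE 0.68, adjusted p = 3.8e-09 in the edgeR interaction test). In adult nuclei dup97 had 9 to 18 counts against 5 in Cas9-GFP mice, 17 to 41 against 12 in Stop-Cas9-GFP mice, and 14 to 32 against 6 to 19 in the labelled groups of Trim28-flox mice, without a call in any of these.

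The locus of dup532.1 (chr3:96508207-96515310, minus strand, 7104 bases) was called in both NPCs and cortex. In NPCs its counts were 28 to 113 with a median of 59.5 in KO and 0 in both controls, at least 24.6-fold higher when 3 counts are allowed in each control library (adjusted p = 1.1e-06). In cortex they were 33, 27 and 38 in KO and 0, 3 and 1 in control (log2 fold change 4.96, SE 0.63, adjusted p = 1.1e-04). All 18 libraries of adult nuclei had 0 counts on it.

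Another interval of the table, dup532 (chr3:96508018-96514566), shares 6360 bases with dup532.1, which is 97.1% of the one and 89.5% of the other, and leaves them 189 and 744 bases of their own. With both joined to 1 locus and counts taken from the table of individual transposable elements, the KO NPC libraries held 152 to 830 counts with a median of 438.5 and the controls 3 and 20 (26.9 ± 9.91 against 0.578 ± 0.590 CPM, log2 fold change 5.51, SE 0.78, adjusted p = 3.4e-05). In cortex the locus held 474, 545 and 351 against 17, 12 and 9 counts (27.6 ± 0.635 against 0.557 ± 0.137 CPM, 5.62, SE 0.17, 4.2e-08). These totals were 7.17 times and 13.8 times those of dup532.1 in the full-length table. For called elements that share no bases with another, the same ratio had a median of 0.849 (0.0889 to 0.970 over 28 pairs of element and experiment with at least 30 counts). On these counts the dup532 locus had a mean level in KO cortex above the 21.3 CPM of dup2481 in the full-length table, although the interval dup532.1 alone had 2.09 CPM. How reads within overlapping intervals were counted is not given in the sources used here. The interval dup532 itself had 8 to 20 counts with a median of 14 in KO NPCs against 0 and 1.

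The element dup854 (chr4:139952849-139958343, plus strand, 5495 bases) also has identical LTRs and was called in both. It held 153, 203 and 78 counts in KO against 11, 4 and 12 in control cortex (8.46 ± 2.17 against 0.383 ± 0.159 CPM, log2 fold change 4.42, SE 0.32, adjusted p = 4.4e-06). In NPCs it held 10 to 23 counts with a median of 16.5 against 0 and 1 (4.91, SE 0.83, 1.1e-04). The levels stood further apart than the fold changes, with a mean of 8.46 CPM in KO cortex and 0.985 CPM in KO NPCs. The interaction of NPC and cortex did not pass the test (0.50, SE 0.76, adjusted p = 0.96).

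The element dup2481 (chr12:70183634-70190146, plus strand, 6513 bases) has RLTR46A LTRs with 97.5% identity and can be reached by unique windows over 95.5% of its length. In cortex it held 356, 472 and 242 counts in KO and 79, 26 and 57 in control (21.3 ± 2.76 against 2.27 ± 0.761 CPM, log2 fold change 3.20, SE 0.27, adjusted p = 8.7e-06). The joined dup532 locus, with 27.6 CPM in KO cortex, was not ranked per length. As a single interval, dup2481 had the highest level per length of the named elements in KO cortex, at 3.27 CPM per kb. It stood ahead of dup854 with 1.54, dup74 with 0.933 and dup846 with 0.874. In NPCs it was far lower and its groups overlapped, with 7 to 26 counts and a median of 14 in KO against 8 and 2 (1.84, SE 0.67, adjusted p = 0.021), and the call was lost without the lacZ library ctrl_867, when counted in the table of individual elements, and when fitted together with the genes.

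Adult nuclei held dup2481 without Trim28 guides as well. The counts were 109, 216, 157 and 113 in KO against 116 in control Cas9-GFP nuclei, and 163, 123, 124 and 145 against 98 in Stop-Cas9-GFP nuclei. In Trim28-flox nuclei they were 209, 126, 259 and 161 in the libraries labelled KO and 388, 317, 288 and 338 in those labelled control, which do not overlap (log2 fold change -0.79, SE 0.25, adjusted p = 0.14). DESeq2 called this element down. The effects in cortex and Trim28-flox nuclei differed by 3.95 on the log2 scale as labelled (SE 0.51, adjusted p = 1.8e-08), and by 2.35 with the flox labels exchanged (SE 0.50, adjusted p = 6.2e-04 in the edgeR interaction test).

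**Figure D3:**
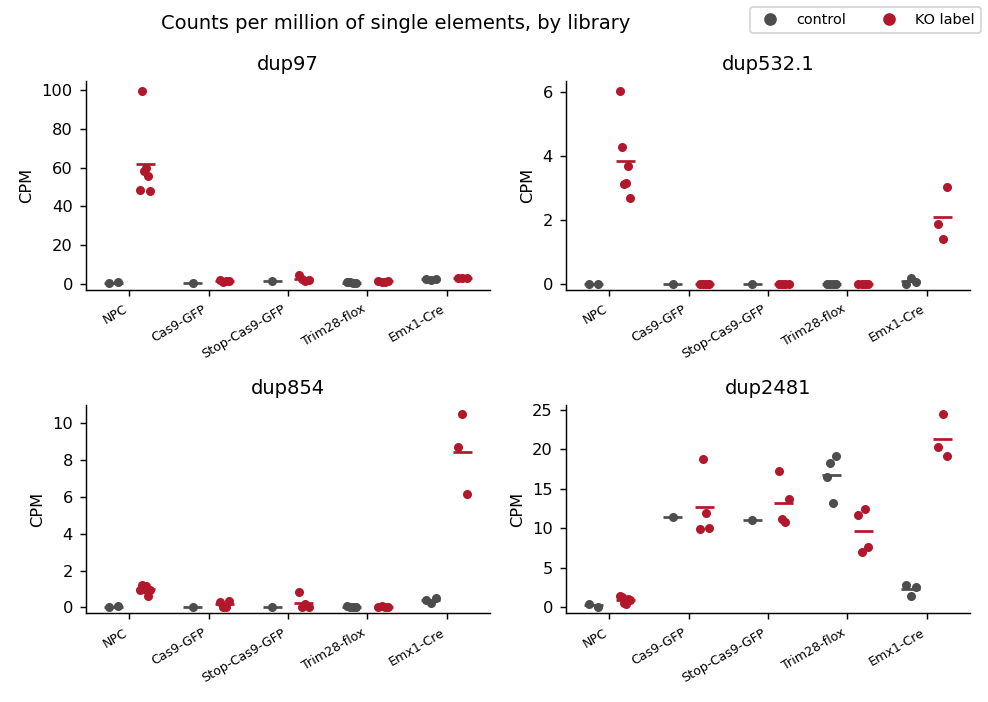
Level of 4 elements in every bulk library (y axes, CPM, 1 panel per element), by experiment and condition (x axes), with bars at the group means. The panels show dup97 at 48.1 to 99.9 CPM in KO NPCs alone, dup532.1 in KO NPCs and KO cortex, dup854 highest in KO cortex, and dup2481 in KO cortex and in adult nuclei of both conditions.

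The other NPC calls were of low level. The element dup2719 (chr14:105757372-105764850, plus strand) had 20 to 132 counts with a median of 44.5 in KO against 2 and 6 (log2 fold change 3.96, SE 0.70, adjusted p = 1.5e-04), and dup2275 (chr11:52157283-52162936, minus strand) had 32 to 75 with a median of 61 against 24 and 17 (1.76, SE 0.41, 0.0011). The element dup530 (chr3:96313463-96320576, minus strand) had 9 to 57 with a median of 23 against 1 and 4 (3.65, SE 0.87, 0.0013). In each of these every KO library lay above both controls. The elements dup1705, dup1510, dup1708.1, dup2273 and dup532 had 0 and 1 count in the controls and medians of 13.5 to 15.5 in KO, with log2 fold changes of 4.49 to 4.99. The element dup631 was called in NPCs with 4 to 32 counts and a median of 22 against 5 and 3 (2.50, SE 0.63, 0.0019) and in cortex with 12, 17 and 8 against 7, 3 and 6 (1.65, SE 0.32, 0.0016). The call of dup1656, with 2 to 13 counts and a median of 6 against 2 and 0, was lost without the lacZ library ctrl_867. When the elements were fitted together with the genes, 4 of the 14 NPC calls passed, for dup97, dup532.1, dup854 and dup1705.

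The 6 elements tested in NPCs and not called were dup1646, dup2311, dup2495, dup2624, dup2681 and dup3078. The element dup2495 (chr12:87149430-87155617, minus strand) had the highest level per length in control NPCs among the named elements, at 0.817 CPM per kb. Its counts were 52 to 138 with a median of 104.5 in KO and 90 and 106 in control (log2 fold change 0.29, adjusted p = 0.48). For dup1646 they were 29 to 181 with a median of 72 against 22 and 96 (0.95, adjusted p = 0.20). This element was called up when the number series of the libraries was fitted as a block.

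In cortex, 3 called elements had no count in any control library. The element dup846 (chr4:131222117-131229229, plus strand) had 105, 98 and 96 counts in KO, at least 46.0-fold higher (adjusted p = 8.2e-06), while NPCs held 0 to 2 counts. The element dup1581 (chr8:54241933-54248971) had 14, 21 and 16, at least 7.77-fold higher, and dup1587 (chr8:60738901-60745141) had 22, 19 and 8, at least 7.07-fold higher. For dup846 the controls of NPCs and cortex were both at 0, and the edgeR interaction had a standard error far above its size, so that whether the effects differ was not determined by that test.

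Several cortex calls were tight across animals. The element dup74 (chr1:48973393-48980266, plus strand) had 105, 125 and 86 counts in KO against 11, 7 and 11 (6.41 ± 0.426 against 0.423 ± 0.0579 CPM, log2 fold change 3.90, SE 0.18, adjusted p = 6.8e-07). NPC libraries had 0 or 1 count on it. The element dup2627 (chr13:92616901-92625521, minus strand) had 54, 53 and 49 against 4, 2 and 3 (4.54, SE 0.27, 2.0e-06), dup2571 (chr13:25350667-25357945, plus strand) 24, 24 and 15 against 1, 1 and 1 (4.67, SE 0.34, 4.4e-06), and dup2761 (chr15:6694268-6701313, plus strand) 46, 30 and 27 against 10, 4 and 7 (2.75, SE 0.30, 5.4e-05). The element dup39 (chr1:28907743-28909731, minus strand), a short copy of 1989 bases, had 22, 32 and 17 against 4, 3 and 7 (2.76, SE 0.32, 6.7e-05).

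The remaining cortex calls spread more. The element dup217 had 39, 15 and 32 counts against 11, 2 and 2 (log2 fold change 3.00, SE 0.62, adjusted p = 0.0020), dup2302 19, 16 and 7 against 6, 9 and 7 (1.36, SE 0.38, 0.010), and dup1355 21, 13 and 12 against 11, 2 and 3 (1.98, SE 0.47, 0.0043). The change of dup833, with 35, 51 and 25 against 36, 26 and 42 counts, was the smallest (0.54, SE 0.21, 0.042), and the call was lost when any of 4 of the 6 libraries was left out and with DESeq2. The 4 tested elements without a call were dup97, dup1646, dup2495 and dup3091, with log2 fold changes of 0.18 to 0.45.

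In adult nuclei 1 element was called in each CRISPR experiment, out of 36 tested in Cas9-GFP nuclei (2.78%, against 0.163% of 105426 individual transposable elements) and 32 in Stop-Cas9-GFP nuclei (3.12%, against 0.0114% of 113560). In both this was dup1355 (chr7:18396778-18402789, minus strand, 6012 bases), which has no annotated 5′ LTR and RLTR46A2 at its 3′ end. It held 52, 61, 55 and 62 counts in KO against 6 in control Cas9-GFP nuclei (4.93 ± 0.588 CPM, SD, n = 4, against 0.589, log2 fold change 3.04, SE 0.75, adjusted p = 0.040), and 89, 68, 97 and 73 against 20 in Stop-Cas9-GFP nuclei (7.74 ± 1.45 against 2.26, 1.77, SE 0.44, 0.0037). With 1 control library each, that library is assumed to vary like the KO libraries. The call was lost without 3 of the 4 KO libraries in turn (1, 2 or 4) in Cas9-GFP nuclei and without library 3 or 4 in Stop-Cas9-GFP nuclei, and in both without the filter and when fitted together with the genes. In Trim28-flox nuclei dup1355 had 73, 22, 58 and 64 counts in the labelled KO and 76, 32, 80 and 80 in the labelled control libraries (-0.26, adjusted p = 0.69).

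In Trim28-flox nuclei none of 12 tested elements was called up (0%, as for 46810 individual transposable elements) or down (0%) by edgeR. At an unadjusted p under 0.05 there was 1 in each direction, and DESeq2 called dup2481 down and none up. No element was called down (0%) in the CRISPR nuclei by edgeR, with none at an unadjusted p under 0.05, and DESeq2 called dup2624 down in Stop-Cas9-GFP nuclei.

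The difference between experiments was tested itself, for elements that passed the filter on low counts. That filter keeps an element that is high in a single group. The share of all genes or transposable elements that differ was not computed, so the numbers below describe single elements and are not weighed. Between NPCs and cortex, 2 of 33 elements had effects that differed (6.06%), dup97 and dup1708.1 (4.75, SE 1.29, adjusted p = 0.018), both larger in NPCs. The call for dup1708.1 was lost without the NPC library ctrl_842 or the cortex library ctrl_64 or ctrl_77, and on merged loci, since dup1708.1 contains the interval dup1708 of 2983 bases. Between cortex and Trim28-flox nuclei, 9 of 28 differed (32.1%), all with the larger effect in cortex by the labels: dup2481, dup39, dup2571, dup2627, dup1581, dup1355, dup2719, dup854 and dup2761. These directions rest on flox labels that Trim28 goes against. With the flox labels exchanged, 5 differed, of which dup2481, dup2571, dup2719 and dup1355 are among the 9 and dup74 is not, and the difference of dup39 went from 5.69 to -0.28. Of the 9 as labelled, dup2719 was not tested in cortex alone, where it had 9, 14 and 14 counts against 0 in each control, and dup2719, dup2761 and dup854 were lost without the flox library labelled control, ctrl_797.

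The elements with the highest mean CPM over the 11 control libraries were dup2481 (8.81), dup1646 (7.72), dup2495 (6.75), dup2311 (5.51) and dup833 (3.72). With each of the 5 control groups weighted equally, the same 5 elements led and dup2495 came first (10.0 CPM), ahead of dup2481 (8.35). In the controls, dup2481, dup1646, dup2311 and dup833 had higher mean CPM in each kind of nuclei than in NPCs and cortex, while dup2495 stood at 5.04 in Trim28-flox nuclei and 5.06 in NPCs. The element dup2311 (chr12:8621015-8628126, minus strand) stood at 8.92 to 11.8 CPM in the group means of nuclei of either condition, at 0.529 in KO and 0.410 in control NPCs and at 0.427 and 0.413 in cortex. The element dup2495 stood at 23.6 in KO and 10.7 in control Cas9-GFP nuclei and at 38.5 and 27.5 in Stop-Cas9-GFP nuclei, against 2.12 and 1.90 in cortex. These preparations differ in the use of nuclei or whole cells and in brain region, and the part of these was not tested.

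Reads were placed on more of the 3′ than of the 5′ LTR copies of called elements, and few copies held most of the counts. Within 1000 bases of the element ends, the individual element table held 556 counts in KO NPCs on 12 annotated LTR copies at the 3′ end (5 in controls) and 13 counts on 17 copies at the 5′ end (4 in controls). In cortex these were 472 in KO (44 in controls) on 16 copies and 6 (4) on 15 copies. A count in KO was seen on 11 of the 3′ and 2 of the 5′ copies in NPCs, and on 13 and 1 in cortex. Copies of dup97 and the dup532 locus held 334 and 171 of the 3′ counts in KO NPCs. Those of dup2481 and the dup532 locus held 226 and 152 in KO cortex. Of the 13 counts at the 5′ end in KO NPCs, 12 fell on a copy of dup2275. Some 5′ copies were RLTR27 pieces of 40 to 45 bases. The 3′ LTR of dup97 had 33 to 96 counts in KO NPCs and 0 in both controls, and its 5′ LTR had 0 in all 8 NPC libraries. The 3′ LTR of dup2481 had 64, 106 and 56 counts in KO against 12, 3 and 10 in control cortex (log2 fold change 3.62, SE 0.29, adjusted p = 8.0e-11). Neither LTR of dup846 had a count in NPCs or cortex, although its body did.

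Coverage tracks of the NPC RNA, deposited as the authors' means per guide, gave the shape along single elements. For guide 3 the mean signal over the 5 equal segments of dup97, from 5′ to 3′, was 46.1, 87.1, 123.1, 76.1 and 52.4, with 0.474 in the upstream and 0 in the downstream flank of 2000 bases. For dup532.1 it fell along the element from 84.2 through 51.6, 46.6 and 44.1 to 23.0, and was 36.5 in the downstream flank. The lacZ track held 0.229 to 0.755 over the segments of dup97.

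Most of the tested genes near the called elements were not called. Within 10 kb of the elements called in NPCs there were 17 genes near 11 elements, of which 8 could be tested and 0 were called, against 0.176% of all genes. Lrrfip1, which encodes an RNA- and DNA-binding protein, starts 2.90 kb from the 5′ end of dup97 on the opposite strand and stood at 245.8 ± 76.8 CPM in KO (SD, n = 6) and 231.7 ± 107.8 in control (n = 2, log2 fold change 0.09, adjusted p = 1.00). Olfr1372-ps1, an olfactory receptor pseudogene whose exons overlap dup2275 on the same strand, stood at 6.74 ± 1.13 against 3.13 ± 0.901 CPM (1.11, adjusted p = 0.32).

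In cortex there were 14 genes near 9 called elements, 8 were tested, and Abhd12b alone was called up, against 0.86% of all genes. Abhd12b is an abhydrolase domain gene of which an exon at the 3′ end overlaps the 5′ end of dup2481 on the same strand, so that reads of the shared bases cannot be told apart. It had 12, 17 and 16 counts in KO against 7, 2 and 2 in control cortex (0.943 ± 0.298 against 0.151 ± 0.0902 CPM, log2 fold change 2.47, SE 0.47, adjusted p = 0.021). Pygl, the liver glycogen phosphorylase gene, ends 0.665 kb beyond the 3′ end of dup2481 on the opposite strand and did not pass the test (-0.03, SE 0.23, adjusted p = 1.00). Of 26 genes of the silencing machinery, Trim28 alone was called in NPCs, cortex and Trim28-flox nuclei, and none was called in the CRISPR nuclei.

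Called elements had features of young insertions more often than the others, as a description of single loci chosen by the test. RLTR10C stood at both ends of 23 of the 26 (88.5%) and of 111 of the other 269 (41.3%), and among elements with an LTR at both ends the identity was at least 98% in 15 of 24 (62.5%) against 65 of 165 (39.4%). The repeated 6 host bases were found in 23 of the 24 called elements with LTRs at both ends and in 123 of the other 165. The longest stretch without a stop codon had a median of 581.5 codons in called elements and 462 in the others. Unique 75-base windows reached a median of 27.4% of the called and 68.7% of the other elements.

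H3K9me3 over the elements was above that of the flanks on average in NPCs. Each bin of the matrix holds a difference between the normalized coverages of the H3K9me3 library and its IgG control, in 100 bins over the element scaled to 1 length and in bins of 10 bases over 2000 bases on either side. With 1 library per antibody there is no replicate check, and values are means over bins. The order and scale of the difference are not given in the sources used here. In pairs of overlapping intervals the profiles matched when read 5′ to 3′ along the element (median r over 7 pairs 0.99, against 0.13 when read the other way), so that orientation was taken as 5′ to 3′.

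The mean score over the 295 elements was 1.14 (SD 1.10 between elements, median 0.918) and that over their flanks 0.527 (median 0.313). An element scored above its own flanks in 215 of 295 cases (72.9%), below in 76 and equal in 4. The elements share 1 pair of libraries and some overlap, so they are not replicates and no interval is given. The share was far lower with medians over bins, as given in the last section. In 163 elements both flanks were lower. The score was 0 or less in 24 elements, and in 9 of these every bin was 0. The most common score above 0 in the flank bins was 1.10, near the mean of the elements. How many fragments stand behind a bin was not determined.

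The mean score rose toward the elements and was highest inside them. In the upstream flank it rose over stretches of 500 bases from 0.135 through 0.325 and 0.563 to 0.887 next to the element. Over the 5 equal segments from the 5′ to the 3′ end it was 0.975, 1.33, 1.34, 1.08 and 0.982. Downstream it fell from 0.810 through 0.677 and 0.457 to 0.366. By median the segments held 0.647, 0.960, 0.858, 0.592 and 0.639, so that the fourth segment was above both ends by its mean and below them by its median. From 5′ to 3′, the segments were the highest of their element in 60, 64, 83, 40 and 48 elements. Unique windows reached a mean of 58.4 to 61.4% of each segment and 87.0% of the flanks, so that reads could be placed on more of the flanks than of the elements.

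**Figure D4:**
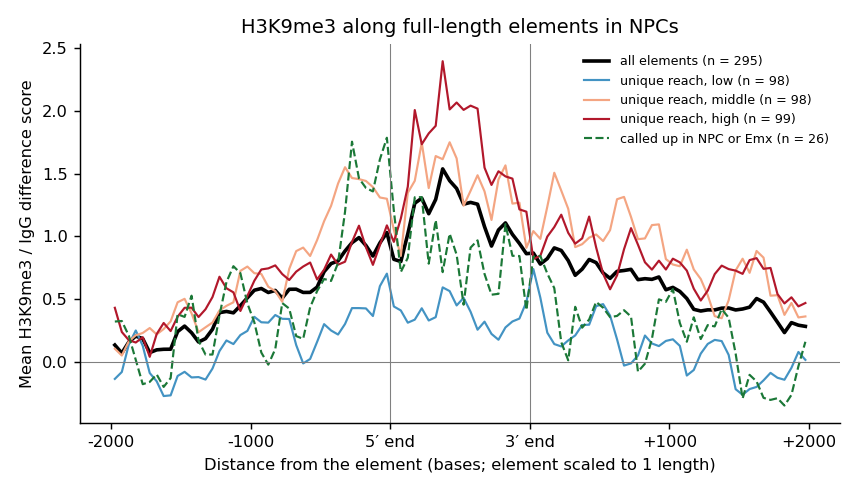
Mean H3K9me3 score (y axis, difference of H3K9me3 and IgG coverage as deposited) along the elements read 5′ to 3′ with 2000 bases of flank on each side (x axis, element scaled to 1 length), for all 295 elements, for terciles of the share reached by unique 75-base windows (98, 98 and 99 elements) and for the 26 elements called up in NPCs or cortex. The tercile of lowest reach averages 0.375 over the element and the tercile of highest reach 1.67.

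Mean scores stood close together across lengths and strands. The short, middle and long terciles of length averaged 1.21, 1.15 and 1.07, with 66.3, 76.5 and 75.8% of elements above their flanks, and Spearman's rho of score and length was -0.012 over 295 elements. These terciles differed in median reach, at 80.8, 63.1 and 53.8%. In the same order they averaged 0.459, 0.346 and 0.367 within the lowest reach and 1.29, 1.33 and 1.51 within the middle. Within the highest reach they averaged 1.44, 1.91 and 1.69, with a rho of 0.16 (n = 99). Elements on the plus strand averaged 1.13 (69.6% above their flanks) and those on the minus strand 1.15 (76.2%).

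The score followed the share of an element that short reads can reach. It averaged 0.375 in the tercile of lowest reach (median reach 20.7%), 1.37 in the middle (64.8%) and 1.67 in the highest (97.2%), with 66.3, 68.4 and 83.8% of elements above their flanks. Spearman's rho of score and reach was 0.55 over 295 elements, which share 1 pair of libraries and are close in sequence. A bin without uniquely placed fragments scores 0 whether or not the mark is there, and bins at 0 made up 33.9% of the element bins. In these data a low score over a young element therefore cannot be told apart from missing reads.

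**Figure D5:**
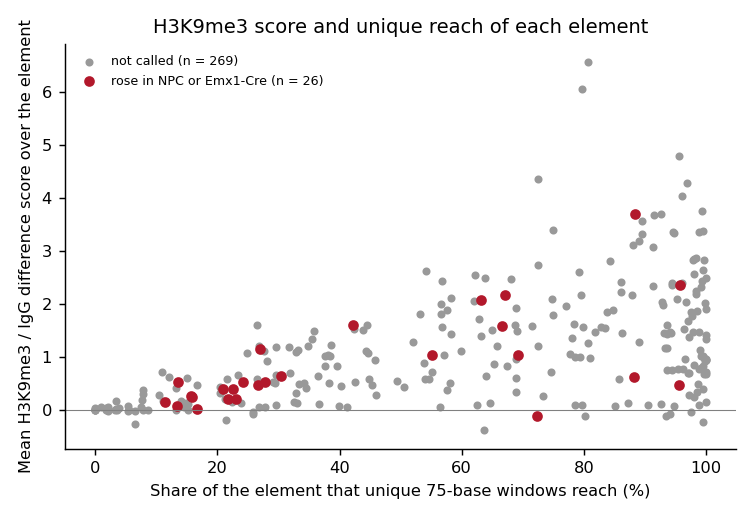
Mean H3K9me3 score of each element (y axis) against the share of the element reached by unique 75-base windows (x axis, percent). Red points are the 26 elements called up in NPCs or cortex and grey points the other 269. Scores are near 0 at low reach and spread up to 6.56 at higher reach, and 15 of the 26 called elements lie in the tercile of lowest reach.

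Elements with at least 98% LTR identity averaged 0.568 (n = 80, median reach 24.5%) and those with less 1.45 (n = 109, 79.2%). Over these 189 elements rho of score and LTR identity was -0.39, and within the tercile of highest reach -0.097 (n = 48). By the LTR at the 5′ end, the score averaged 1.04 for RLTR10C (n = 151), 1.61 for RLTR10B2 (n = 15), 1.63 for RLTR10E (n = 11), 1.41 for RLTR10F (n = 9), 1.13 for RLTR10B (n = 9), 0.569 for RLTR46A (n = 12) and 1.24 without an annotated LTR (n = 83). Among these, RLTR46A elements had a median reach of 30.3%, and 5 of the 12 scored above their flanks.

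The 14 elements called up in NPCs had a median score of 0.493 (0.0093 to 3.70), and the 6 tested without a call 0.95 (-0.230 to 2.48). Within terciles of reach, the elements called in NPCs or cortex and the others had mean scores of 0.385 (n = 15) against 0.373 (n = 83) at the lowest reach, 1.34 (n = 7) against 1.38 (n = 91) in the middle and 1.79 (n = 4) against 1.66 (n = 95) at the highest. Elements without a count in any library averaged 1.23 (n = 98) and those with a count 1.10 (n = 197).

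Single called elements differed widely. The score of dup97 was 0.0093 with bins at 0 over most of the element, beside 0.482 in its upstream and 1.31 in its downstream flank. The score of dup530, of which unique windows reach 88.3%, was 3.70 against 0.274 in its flanks, and its 5 segments held 2.75, 4.86, 5.83, 2.48 and 2.59. The element dup2275 scored 2.07 against 0.535 in its flanks, and dup1705 2.17 against 1.16. In dup2481, with 95.5% reach, the 5′ segments held 1.75 and 2.43 and the others -0.540, -0.597 and -0.717. The element dup74, called in cortex and at 0 or 1 count in NPCs, scored 2.37 with 2.32 in its flanks.

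The highest scores were those of dup1299 (chr7:10010112-10014981, 6.56) and dup1299.1 (6.06), which share most of their bases, of dup2972 (chr17:16980627-16987252, 4.79), dup375 (chr2:181901948-181909089, 4.37) and dup1183 (chr6:85734113-85739946, 4.29). None of these was called in any experiment. In dup375 the flanks scored 5.28, above the element. The lowest were dup2157 (-0.386), dup1019 (-0.260), dup2681 (-0.230), dup2302.1 (-0.188) and dup2620 (-0.118), of which dup2681 has 99.6% reach.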

How the data were processed

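RNA-seq libraries were stranded, poly-A selected and read as pairs of 150 bases. Per the study's methods, the authors aligned reads with STAR 2.6.0 to GRCm38.p6, kept uniquely mapped reads and deposited raw counts per gene, individual transposable element and full-length MMERVK10C from featureCounts (Subread 1.6.3), and TEtranscripts counts per subfamily. CUT&RUN reads were mapped with Bowtie2 2.3.4.2, and the authors deposited a deepTools matrix whose score per bin is the difference of H3K9me3 and IgG coverage at a mapping quality of at least 10, together with the RNA coverage of NPCs as a mean score per guide. In all, 6 columns of the individual element table match no sample and were not used, nor were the single-nuclei files, which count genes.

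Groups follow the sample labels. In R 4.3.3, edgeR 4.0.16 fitted each experiment alone (filterByExpr, TMM factors and library sizes from gene counts, quasi-likelihood test, Benjamini-Hochberg adjustment). CPM use the normalized library sizes. The SE is the log2 fold change divided by the square root of F. Reach, LTR identity, host repeats and stop-free stretches were computed from the RefSeq genome sequence (GRCm38.p6), and primers come from the study's supplementary table. LTRs, gene positions and exons come from the deposited tables. Floors of 3 counts cover counting error only. Alternatives were DESeq2 1.42.0, RLE factors, no filter, a fit with genes, leaving out each library and, chosen after seeing the data, merged loci and exchanged flox labels.

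Named are Trim28, called elements, the 5 elements with the highest and the 5 with the lowest H3K9me3, the 5 highest in controls, genes within 10 kb and LTR copies within 1000 bases of a called element, and MMERVK10C-int. The elements and lists were chosen with earlier results of these data known. NPC libraries form 2 number series (842 to 851 and 867 to 876), and libraries of a series deviated together (r 0.53 to 0.71 over 6 pairs), so the series was also fitted as a block. The fit was checked on data drawn with known changes before use.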

Additional observations from a re-analysis of the deposited data

Results flagged for a closer look

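A single library stood apart from the rest of its group in 3 of 50 combinations of a value and a group, where chance gives about 1 in 20. The groups held 4 or 6 libraries. The combinations are not independent, since dup97 made up 64.7% of the full-length counts in g3_870. All were KO NPC libraries. The guide 3 library g3_870 had a summed level of 154.5 CPM over the full-length elements, against 86.0 to 107.6 CPM in the other 5, and 99.9 CPM of dup97, against 48.1 to 59.6 CPM. The guide 3 library g3_845 had 7.05 CPM of dup2719, against 1.73 to 3.52 CPM. The calls of dup97 and dup2719 were kept without either of these libraries.

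The effect of Trim28-KO differed between experiments for 11 values, tested as an interaction in edgeR. The share of all genes or transposable elements that differ was not computed. Between NPCs and Emx1-Cre cortex, the log2 effect was larger in NPCs by 6.94 for dup97 (SE 0.68, adjusted p = 3.8e-09) and by 4.75 for dup1708.1 (SE 1.29, 0.018), of which the latter was lost without the NPC library ctrl_842 or the cortex library ctrl_64 or ctrl_77. Between Emx1-Cre cortex and the labelled groups of Trim28-flox nuclei, it was larger in cortex by 3.95 for dup2481 (SE 0.51, 1.8e-08), 5.69 for dup39 (SE 1.04, 2.1e-05), 5.01 for dup2571 (SE 0.93, 2.1e-05), 5.57 for dup2627 (SE 1.24, 3.5e-04) and 10.2 for dup1581 (SE 2.57, 0.0015). It was larger by 2.20 for dup1355 (SE 0.59, 0.0026), 7.46 for dup2719 (SE 2.27, 0.0080), 5.04 for dup854 (SE 1.72, 0.019) and 3.30 for dup2761 (SE 1.18, 0.023). These directions rest on flox labels that Trim28 goes against. With the flox labels exchanged, the difference was 2.35 for dup2481, 4.26 for dup2571, 1.68 for dup1355 and 6.84 for dup2719, all still past the threshold, and -0.28 for dup39, 3.42 for dup2627, 3.69 for dup854 and 2.11 for dup2761, which were not, while that of dup1581 could not be determined. For dup1581 and dup2719 the cortex controls were all at 0, so these sizes depend on the prior count of the fit.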

How the results depend on the processing

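Of the values recomputed, 205 were held to be the same, 32 moved, 5 reversed and 6 became weaker, and where no cause is named it was not tested. For Trim28, the same meant an unchanged direction and side of the threshold. For numbers of calls, summed levels and H3K9me3 it meant a size close to the main one, so which elements were called could still change. Fitted together with the genes, which adjusts p over many more tests, 4 elements were called up in NPCs, 12 in cortex, 0 in Cas9-GFP and 0 in Stop-Cas9-GFP nuclei. Without the filter, 36 were called in cortex (15 of the 16 among them, without dup833), 0 in either kind of CRISPR nuclei, and 1 differed between NPCs and cortex. DESeq2 called 3 up in Cas9-GFP nuclei (adding dup1646 and dup2495), 1 down in Stop-Cas9-GFP nuclei, 1 down in Trim28-flox nuclei, and 5 as different between NPCs and cortex. On merged loci 11 were called in NPCs (10 shared), 14 in cortex, 0 in Stop-Cas9-GFP nuclei and 1 as different, and the log2 ratio of summed CPM in cortex was 2.62. Without dup97 that ratio in NPCs was 1.63.

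Leaving out each library in turn gave 13 to 15 calls in NPCs, 15 to 19 in cortex, 0 to 2 in Cas9-GFP and 0 to 3 in Stop-Cas9-GFP nuclei, 1 to 3 differences between NPCs and cortex and 6 to 10 between cortex and Trim28-flox nuclei. With the flox labels exchanged, 5 of the latter were called in place of 9. The log2 fold change of Trim28 ran from -2.0 to -1.62 in NPCs, where 6 of 8 settings lost the call, and from -0.104 to 0.0681 in Stop-Cas9-GFP nuclei, where its sign also turned with DESeq2 (0.00037) and RLE factors (0.00040). Blocking the NPC series gave 15 calls, the 14 and dup1646.

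For H3K9me3, medians over bins gave 51.9% of elements above their flanks, 0.850 over elements and 0.365 over flanks. Only the outer 1000 bases of each flank gave 79.7% and 0.320, and only elements of at least 5000 bases gave flanks of 0.463. Elements with few counts or little unique sequence could not be resolved at this depth.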
